A study of Picea abies with 36 samples.

Results

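PaLAC1-like (MA_75861g0010) and PaPRX66-like (MA_10431507g0020) are the laccase and the class III peroxidase that the study of these libraries names in Norway spruce (Picea abies). They are 2 of the 70736 genes in the count table and were taken by their gene IDs, and both passed the filter on low counts that left 38732 genes to test. The RNA came from the middle part of the hypocotyl, which is the stem between root and cotyledons, of wild-type (WT) seedlings of the seed source FP-518 TreO G7 Söregärde that were 2 weeks old when treated. Lanolin paste on the hypocotyl held the auxin indole-3-acetic acid (IAA) at 50 mM, the synthetic cytokinin 6-benzylaminopurine (BAP) at 135 mM, both (BAP+IAA) or neither hormone (mock), and the treated stem was sampled after 5, 10 and 15 days. All 36 libraries came from wrapped, paste-treated stem, in 3 libraries for each of the 12 groups of treatment and day, and each library pooled several plants. The doses are those of the labels, and the study gives BAP in another unit elsewhere, so the applied dose of BAP is uncertain.

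Laccases are secreted copper enzymes that use oxygen, and class III peroxidases are secreted haem enzymes that use hydrogen peroxide. Both kinds oxidise monolignols, the alcohols that couple into lignin in the walls of xylem vessels, tracheids and fibres, and both form large gene families in plants. In Arabidopsis, peroxidase 66 takes part in the lignification of tracheary elements, the water-conducting cells. Auxin and cytokinin both act on the vascular cambium of stems, and auxin also promotes the formation of tracheary elements.

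The libraries held 13188942 to 23110495 counts. Levels are given as CPM, the counts of a gene per 1000000 counts of TMM-adjusted library size. Both genes were scarce, with 0 to 499 counts of PaLAC1-like and 2 to 239 counts of PaPRX66-like in a library, and 1 count was worth well under 1 CPM. The spread between libraries of a group, as the biological coefficient of variation that edgeR fitted, was 79.0% for PaLAC1-like and 42.1% for PaPRX66-like, against a median of 18.1% over all genes tested. In these bulk samples, fewer cells that express a gene and less of its RNA per cell cannot be told apart.

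PaLAC1-like rose under BAP from day 10 and under BAP+IAA already on day 5, from at most 1.48 CPM in any mock library, and was not called under IAA, where 7 of the 9 libraries held at most 1.41 CPM. On day 5 its level in the 3 BAP+IAA libraries was 11.7, 25.4 and 19.0 CPM, whereas it was 0.127, 0.440 and 0.937 CPM in the mock and 0.512, 0.555 and 0.443 CPM under BAP. Under IAA on that day it was 4.31, 0.573 and 0.280 CPM. The BAP+IAA libraries thus lay above every other library of day 5, the BAP libraries lay within the mock range, and a lone IAA library was high.

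On day 10 PaLAC1-like stood at 1.48, 0.743 and 0.866 CPM in the mock, and its 3 IAA libraries held 3.97, 0 and 0.946 CPM. The BAP libraries held 4.62, 13.5 and 9.38 CPM and the BAP+IAA libraries 7.59, 15.4 and 2.38 CPM. All 6 libraries with BAP lay above the 3 mocks, while the lowest BAP+IAA library lay below the highest IAA library. On day 15 the mock stood at 0.656, 0 and 0.216 CPM, from 11, 0 and 3 counts. The 3 IAA libraries of day 15 held 0.224, 1.41 and 0.724 CPM, the BAP libraries 17.2, 10.5 and 18.8 CPM and the BAP+IAA libraries 20.7, 25.1 and 34.3 CPM. On day 15 the 6 libraries with BAP lay above the 6 without it, and each BAP+IAA library lay above each BAP library.

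**Figure D1:**
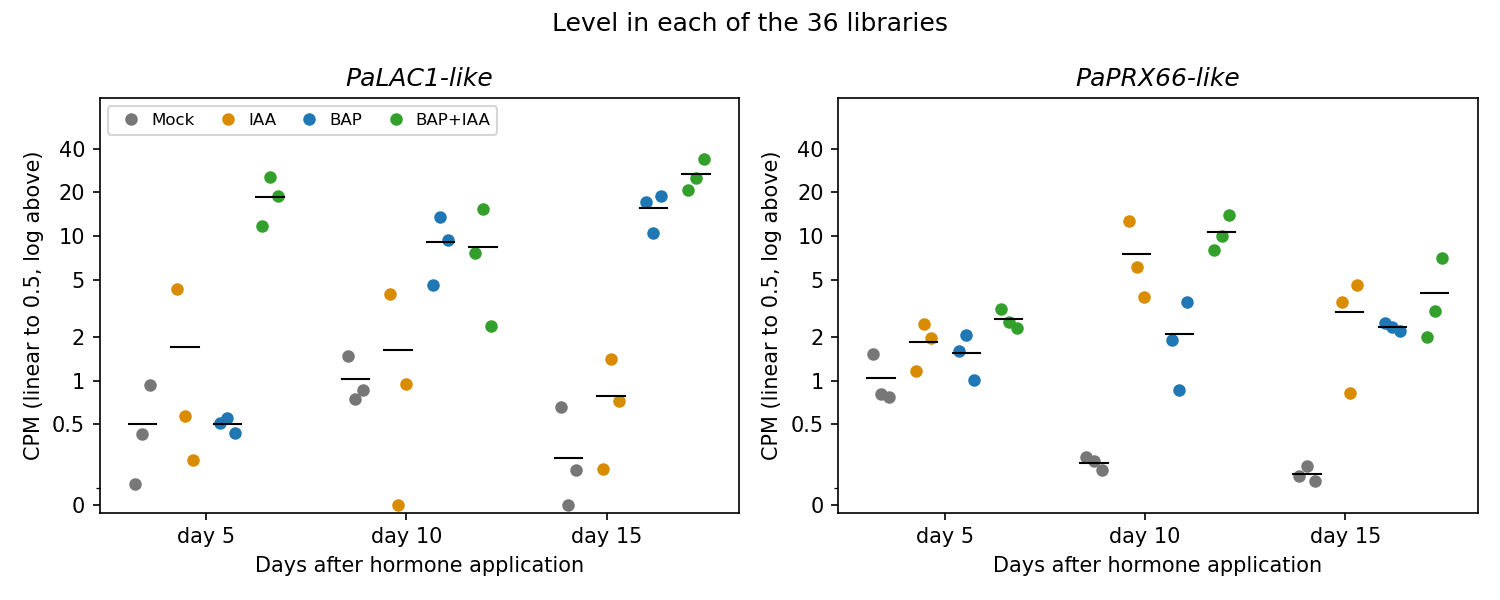
Level of PaLAC1-like and PaPRX66-like in each of the 36 libraries, in CPM on an axis that is linear up to 0.5 and logarithmic above it, by treatment and day. Points are libraries and bars are means of 3 libraries. PaLAC1-like reaches 34.3 CPM under BAP+IAA on day 15, and PaPRX66-like stays at or below 0.296 CPM in the 6 mock libraries of days 10 and 15.

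The group means of PaLAC1-like ran from 0.291 ± 0.334 CPM (SD, n = 3) in the mock of day 15 to 26.7 ± 6.99 CPM under BAP+IAA on day 15. Below that highest mean came BAP+IAA on day 5 (18.7 ± 6.86 CPM), BAP on day 15 (15.5 ± 4.40 CPM), BAP on day 10 (9.16 ± 4.43 CPM) and BAP+IAA on day 10 (8.44 ± 6.53 CPM). The other 7 groups had means of at most 1.72 CPM. All 11 pairs of groups that follow each other in this order had ranges that overlapped. Overlap of ranges is not a test of a difference, and the order itself was not tested.

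Against the mock of the same day, PaLAC1-like was called higher in 5 of the 9 comparisons, where a gene is called if its log2 fold change exceeds 1 in size and its adjusted P stays under 0.05 in edgeR's quasi-likelihood test with Benjamini-Hochberg adjustment over all genes tested. Under BAP+IAA the log2 fold change was 5.15 ± 0.94 (SE) on day 5 (adjusted P = 7.62e-05), where 10.2% of all genes tested were called higher. It was 3.05 ± 0.87 on day 10 (adjusted P = 0.00559, with 10.0% of genes called higher) and 6.46 ± 1.02 on day 15 (adjusted P = 1.1e-05, with 11.4% called higher). Under BAP it was 3.17 ± 0.87 on day 10 (adjusted P = 0.00661, with 4.99% called higher) and 5.68 ± 1.03 on day 15 (adjusted P = 0.000107, with 7.00% called higher). In all 5 of these comparisons each hormone library lay above each mock library.

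The same test gave no call for PaLAC1-like under IAA on any day. Its log2 fold changes under IAA were 1.63 (95% confidence interval -0.60 to 3.85), 0.63 (-1.37 to 2.64) and 1.38 (-1.34 to 4.09) on days 5, 10 and 15, with unadjusted P of 0.143, 0.521 and 0.305. These intervals are wide and include changes as large as several-fold. The call against the mock under BAP+IAA on day 10 was lost without BAP+IAA replicate 2 of that day (log2 fold change 2.27, adjusted P = 0.0553). The size of 3 of the other 4 changes moved by more than 1.5-fold with single mock libraries, in which counts were few. The day 5 value under BAP+IAA became 6.04 without mock replicate 3. On day 15 the values under BAP and BAP+IAA became 7.18 and 7.97 without mock replicate 1 and 5.08 and 5.86 without mock replicate 2.

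**Figure D2:**
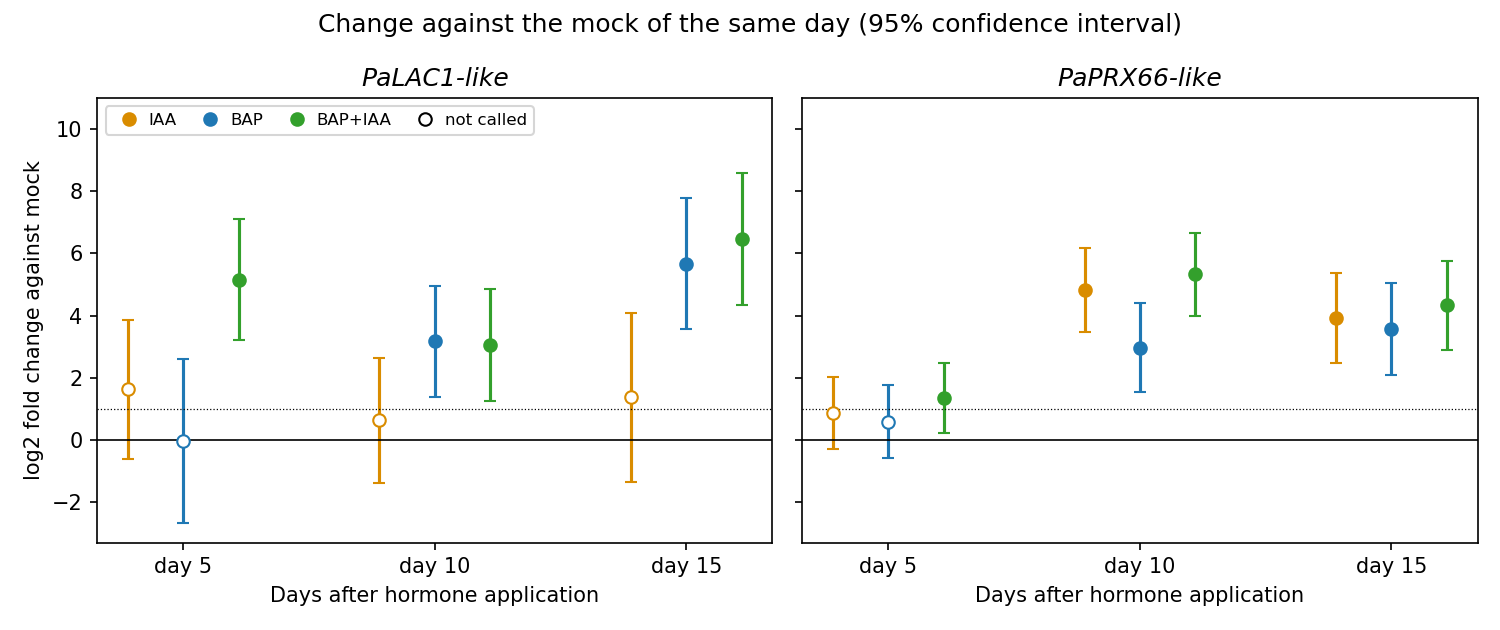
Change of both genes against the mock of the same day, as log2 fold change with its 95% confidence interval, by treatment and day. Filled points were called, open points were not, and the dotted line marks a log2 fold change of 1. For PaLAC1-like the IAA points at 1.63, 0.63 and 1.38 are open, and for PaPRX66-like the points of days 10 and 15 are filled under every hormone, from 2.97 to 5.33.

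Adding BAP to IAA raised PaLAC1-like on every day. BAP+IAA exceeded IAA by a log2 fold change of 3.52 ± 0.82 on day 5 (adjusted P = 0.004, with 3.06% of genes called higher), 2.42 ± 0.82 on day 10 (adjusted P = 0.0255, with 5.54% called higher) and 5.08 ± 0.89 on day 15 (adjusted P = 7.49e-05, with 5.94% called higher). On day 10 the ranges of the 2 groups overlapped. The day 10 call was lost with DESeq2 (adjusted P = 0.0582), in a fit to the 12 libraries of day 10 (0.0989), and without IAA replicate 2 (1.82, adjusted P = 0.106), IAA replicate 3 (2.14, 0.102) or BAP+IAA replicate 2 (1.63, 0.187), and its value rose to 4.12 without IAA replicate 1. Without IAA replicate 1 the day 5 value became 5.35, and without IAA replicate 2 that of day 15 became 5.83.

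Adding IAA to BAP raised PaLAC1-like on day 5. BAP+IAA exceeded BAP by 5.19 ± 0.95 on the log2 scale on day 5 (adjusted P = 1.92e-04, with 7.49% of genes called higher). The difference was -0.12 (95% confidence interval -1.58 to 1.34) on day 10 and 0.78 (-0.63 to 2.19) on day 15, and neither was called, although on day 15, where 4.06% of genes were called higher, the ranges did not overlap. Whether the effect of IAA on top of BAP differed between days was not tested. Set against each other, IAA gave less PaLAC1-like than BAP on day 10 (log2 fold change -2.54 ± 0.81, adjusted P = 0.0158, with 6.87% of genes called lower) and on day 15 (-4.30 ± 0.89, adjusted P = 4.97e-04, with 5.33% called lower), and the ranges did not overlap on either day. The day 10 call between the hormones was lost without IAA replicate 2 (-1.93), IAA replicate 3 (-2.26) or BAP replicate 2 (-2.15) and in the fit to day 10 alone (adjusted P = 0.0719), and became -4.25 without IAA replicate 1. The day 15 value became -5.06 without IAA replicate 2.

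The interaction, which is the log2 level under BAP+IAA minus those under IAA and BAP plus that of the mock, tests whether the effects of the hormones add up. For PaLAC1-like on day 5 it was 3.57 ± 1.56 (unadjusted P = 0.0303, adjusted P = 0.126) and was not called, against 4.39% of all genes called with a positive interaction. Without IAA replicate 1 of day 5, the lone high IAA library, it was 5.37 (adjusted P = 0.0229) and was called. On days 10 and 15 it was -0.76 ± 1.20 and -0.60 ± 1.47, with adjusted P of 0.765 and 0.873.

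Over time, PaLAC1-like rose under BAP between day 5 and day 10 (log2 fold change 4.17 ± 0.96, adjusted P = 0.0197) and between day 5 and day 15 (4.92 ± 0.95, adjusted P = 6.24e-04). Of all genes tested, 1.21% and 8.09% were called higher in these comparisons, and the ranges overlapped in neither. The rise to day 10 was lost without any 1 of 5 of its 6 libraries, with adjusted P from 0.0524 without BAP replicate 3 of day 10 to 0.0721 without BAP replicate 2 of day 5, and held without BAP replicate 1 of day 10. Under BAP+IAA the level on day 10 was lower than on day 5 by -1.15 ± 0.70 (adjusted P = 0.366) and that on day 15 higher than on day 10 by 1.66 ± 0.71 (adjusted P = 0.165), and neither was called, although on day 15, against 1.98% of genes called higher, the ranges did not overlap with those of day 10. In the mock the libraries of day 15 lay below those of day 10 (-1.75 ± 1.28, adjusted P = 0.997), in a comparison where edgeR called 0% of genes lower, with 998 genes lower at an unadjusted P under 0.05, and DESeq2 called 31 genes in either direction. The change of the BAP response from day 5 to day 10 was 3.22 and was not called, in a comparison where edgeR called 0% of genes. From day 5 to day 15 the change was 5.72 ± 1.75 (unadjusted P = 0.00311, adjusted P = 0.0949), which missed the threshold in edgeR and passed it in DESeq2 (adjusted P = 0.00663).

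PaPRX66-like lay above the mock of the same day under all 3 hormone treatments on days 10 and 15, with its highest levels on day 10 where IAA was present. On day 5 its mock libraries held 1.53, 0.807 and 0.772 CPM, the IAA libraries 1.17, 2.47 and 1.96 CPM, the BAP libraries 1.61, 2.05 and 1.01 CPM and the BAP+IAA libraries 3.14, 2.53 and 2.32 CPM. The single-hormone libraries of day 5 overlapped the mock, and the 3 BAP+IAA libraries lay above it.

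On day 10 PaPRX66-like held 4 counts in each mock library (0.296, 0.270 and 0.217 CPM). The IAA libraries of day 10 held 12.7, 6.14 and 3.78 CPM, the BAP libraries 1.92, 0.866 and 3.49 CPM and the BAP+IAA libraries 8.04, 9.93 and 13.9 CPM. All 9 hormone libraries lay above all 3 mocks, and the BAP libraries lay below all 6 libraries with IAA. On day 15 the mock held 3, 4 and 2 counts (0.179, 0.243 and 0.144 CPM), the IAA libraries 3.52, 0.823 and 4.60 CPM, the BAP libraries 2.50, 2.34 and 2.19 CPM and the BAP+IAA libraries 1.99, 3.05 and 7.02 CPM. The 9 hormone libraries of day 15 again lay above the mocks but overlapped among themselves, and IAA replicate 2 stood apart at the low end.

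The group means of PaPRX66-like ran from 0.189 ± 0.050 CPM (SD, n = 3) in the mock of day 15 to 10.6 ± 2.99 CPM under BAP+IAA on day 10, followed by IAA on day 10 (7.55 ± 4.64 CPM) and BAP+IAA on day 15 (4.02 ± 2.65 CPM). The 3 mock groups had the 3 lowest means. Of the 11 pairs of neighbours in the order, the ranges of only 1 did not overlap, that of the mocks of day 5 (1.04 ± 0.43 CPM) and day 10 (0.261 ± 0.040 CPM).

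Against the mock of the same day, PaPRX66-like was called higher in 7 of the 9 comparisons. On day 10 its log2 fold change was 4.83 ± 0.65 under IAA (adjusted P = 9.37e-07, with 10.1% of genes called higher), 2.97 ± 0.69 under BAP (adjusted P = 0.00147) and 5.33 ± 0.65 under BAP+IAA (adjusted P = 1.21e-07). On day 15 it was 3.91 ± 0.70 under IAA (adjusted P = 8.05e-05, with 9.86% of genes called higher), 3.57 ± 0.71 under BAP (adjusted P = 2.76e-04) and 4.34 ± 0.69 under BAP+IAA (adjusted P = 8.61e-06). These 6 calls held without any 1 library. Their values moved by more than 1.5-fold without IAA replicate 1 of day 10 (4.23 under IAA), BAP replicate 3 of day 10 (2.37 under BAP) and BAP+IAA replicate 3 of day 15 (3.68 under BAP+IAA).

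The mock counts behind these folds were few, 12 in all on day 10 and 9 on day 15. From the pooled counts alone, scaled by library size, the level under BAP+IAA on day 15 was 20.4 times that of the mock, with an exact conditional 95% interval of 10.5 to 45.4 that covers counting error only. The corresponding ratio on day 10 was 42.2 (24.0 to 82.2). On day 5 only BAP+IAA was called (1.35 ± 0.55, adjusted P = 0.0469), and this call was lost with no low-count filter (adjusted P = 0.0644) and without any 1 of 5 of its 6 libraries (adjusted P from 0.0653 without BAP+IAA replicate 3 to 0.158 without mock replicate 3), and held without mock replicate 1. Under IAA and BAP the day 5 values were 0.87 (95% confidence interval -0.29 to 2.02) and 0.59 (-0.59 to 1.77).

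Adding IAA to BAP raised PaPRX66-like on day 10 (log2 fold change 2.36 ± 0.50, adjusted P = 0.00103, with 4.98% of genes called higher), and the call held without any 1 library, with a value of 2.97 without BAP replicate 3. It was the only call among the 6 comparisons of BAP+IAA with a single hormone. On days 5 and 15 the same difference was 0.76 (95% confidence interval -0.32 to 1.84) and 0.77 (-0.26 to 1.80), and on day 5 the ranges did not overlap. BAP+IAA differed from IAA by 0.48 (-0.57 to 1.54), 0.50 (-0.45 to 1.45) and 0.43 (-0.58 to 1.44) on days 5, 10 and 15, with overlapping ranges, so a 2-fold effect of added BAP lies within each interval. IAA exceeded BAP on day 10 by 1.85 ± 0.50 (adjusted P = 0.00418, with 11.4% of genes called higher), which was lost without IAA replicate 1 (1.25, adjusted P = 0.0609) and became 2.47 without BAP replicate 3. On days 5 and 15 IAA and BAP differed by 0.28 (-0.83 to 1.38) and 0.34 (-0.70 to 1.38).

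The interaction of PaPRX66-like was negative on days 10 and 15, so that on the log2 scale BAP+IAA reached less than the sum of the single responses. It was -2.47 ± 0.84 on day 10 (adjusted P = 0.0491, with 4.63% of genes called with a negative interaction) and -3.14 ± 0.89 on day 15 (adjusted P = 0.0208, with 4.28%), and -0.11 ± 0.76 on day 5. The day 10 call was lost in the fit to day 10 alone (adjusted P = 0.102), with no low-count filter (0.0668), with the replicate number as a block (0.0553) and in 9 of the 12 fits made with 1 library removed. Only without IAA replicate 3, BAP replicate 2 or BAP+IAA replicate 3 did it hold, and its value was smallest without IAA replicate 1 (-1.87) and BAP replicate 3 (-1.87). The day 15 call was lost in the fit to day 15 alone (adjusted P = 0.0642) and without mock replicate 1 (0.0586), mock replicate 3 (0.0568) or IAA replicate 3 (-2.70, 0.0651), and became -3.81 without BAP+IAA replicate 3. All 4 groups of a day enter this value, the 9 to 12 mock counts among them.

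Over time, PaPRX66-like rose from day 5 to day 10 under IAA (log2 fold change 1.98 ± 0.50, adjusted P = 0.00335, with 9.01% of genes called higher) and under BAP+IAA (2.00 ± 0.49, adjusted P = 0.00882, with 2.03% called higher), with ranges that did not overlap. The IAA value became 1.38 (adjusted P = 0.0451) without IAA replicate 1 of day 10. By day 15 the level under BAP+IAA was lower than on day 10 by -1.41 ± 0.48 (adjusted P = 0.0709), which was not called, although the ranges did not overlap, against 0.648% of genes called lower. It was called without BAP+IAA replicate 3 of day 15 (-2.08, adjusted P = 0.018). Under BAP no difference between days was called, with values of 0.40 (95% confidence interval -0.70 to 1.51) from day 5 to day 10 and 0.58 (-0.51 to 1.67) from day 5 to day 15, the latter with ranges that did not overlap.

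PaPRX66-like in the mock was lower on day 10 than on day 5 by -1.97 ± 0.74 (unadjusted P = 0.0121, adjusted P = 0.364) and lower on day 15 by -2.39 ± 0.77 (unadjusted P = 0.00446, adjusted P = 0.119), and all 3 libraries of each later day lay below all 3 of day 5. Neither was called in edgeR, where 0.0284% and 0.318% of genes were called lower in these comparisons, and the day 15 value was called in DESeq2 (adjusted P = 0.0297). The responses of days 10 and 15 were thus measured against mock libraries that lay below those of day 5. The log2 fold change against the mock was larger than on day 5 by 3.96 ± 0.88 under IAA on day 10 (adjusted P = 0.00326, with 3.95% of genes called with a larger response), by 3.04 ± 0.93 under IAA on day 15 (adjusted P = 0.0235, with 5.85%) and by 3.97 ± 0.87 under BAP+IAA on day 10 (adjusted P = 0.0115, with 0.586%). The IAA difference of day 15 was lost without any 1 of 5 libraries, with values from 2.61 to 3.01, and that of BAP+IAA without mock replicate 1 of day 5 (3.61). The other 3 of these 6 differences, 2.38 and 2.98 under BAP on days 10 and 15 and 2.98 under BAP+IAA on day 15, were not called (adjusted P = 0.633, 0.107 and 0.0531).

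Since 1 scaffold of the P. abies assembly holds PaPRX66-like and 2 more annotated genes, these were examined as well. MA_10431507g0030 carries the same annotation, peroxidase 66, and held 0 to 44 counts a library. Its highest levels were on day 10, at 2.63, 0.860 and 1.28 CPM under IAA and 0.670, 2.57 and 2.27 CPM under BAP+IAA, whereas its mock libraries of that day held 0.148, 0.0675 and 0.0542 CPM. It was called higher in 6 of the 9 comparisons with the mock, all of them among the 7 of PaPRX66-like. The exception was BAP on day 10, where its log2 fold change was 1.30 ± 1.03 (adjusted P = 0.375).

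MA_10431507g0010, the remaining gene of the scaffold, held 0 to 3 counts a library and was not tested. PaLAC1-like is alone on its scaffold in the count table. Across the 36 libraries, after subtracting the group means of log2 CPM, PaPRX66-like and MA_10431507g0030 varied together (Pearson's r = 0.53, permutation P = 0.00423, adjusted over 2 relations 0.00846, and Spearman's rho = 0.61, permutation P = 0.00133, adjusted 0.00266, with labels permuted within groups). Without the 2 libraries farthest from the median of PaPRX66-like r was 0.47. PaLAC1-like and PaPRX66-like did not vary together detectably in the same way (r = -0.18, permutation P = 0.457, and rho = -0.28, permutation P = 0.179), and r was -0.42 without the 2 farthest libraries. How reads that align to several genes were counted is not stated for this study, so counts of neighbouring copies are uncertain.

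**Figure D3:**
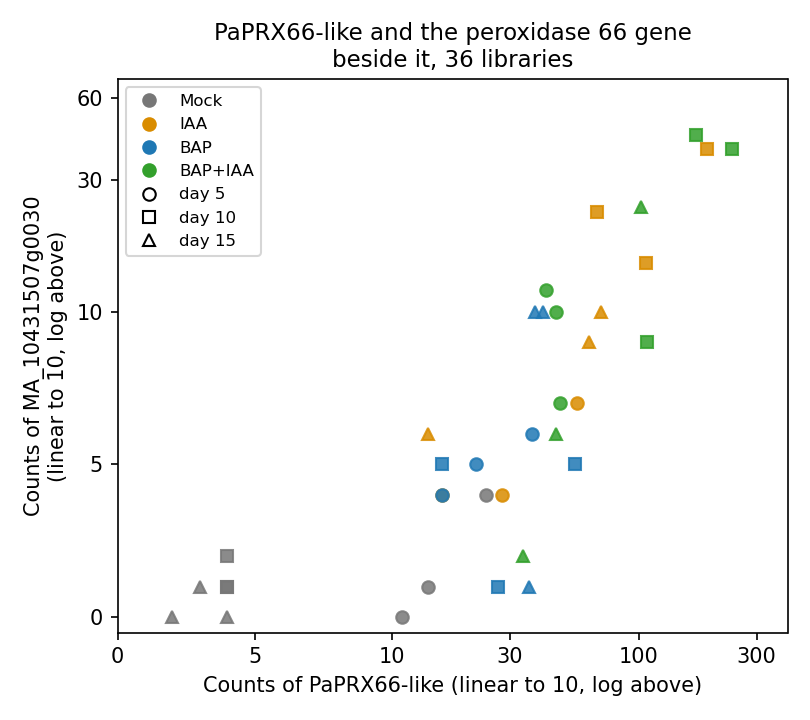
Counts of PaPRX66-like against those of MA_10431507g0030, the peroxidase 66 gene on the same scaffold, in the 36 libraries, on axes that are linear up to 10 and logarithmic above. Colour marks the treatment and shape the day. The 6 mock libraries of days 10 and 15 sit at 2 to 4 counts of PaPRX66-like, and the 3 libraries with most counts of both genes are of day 10 under IAA and BAP+IAA.

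The study's tables annotate 3 more genes on other scaffolds as peroxidase 66, in a table of genes that were called on these same samples, so their responses are not independent evidence. MA_100063g0010 had 1 count over the mock libraries of day 10, 78 under IAA and 96 under BAP+IAA, which are scaled ratios of 72.6 (exact conditional 95% interval 12.7 to 2905) and 94.1 (16.5 to 3753) that cover counting error only. MA_102298g0010 had log2 fold changes on day 10 of 2.88 ± 1.01 under IAA and 3.62 ± 1.00 under BAP+IAA. MA_117730g0010 had no count in the mock libraries of days 5 and 10, and its day 10 libraries held 76 counts (IAA), 3 counts (BAP) and 121 counts (BAP+IAA) in all. All 3 were called higher on day 10 under IAA and BAP+IAA and on day 15 under BAP+IAA, and none was called under BAP alone on any day in edgeR, where the lowest unadjusted P was 0.0181, for MA_100063g0010 on day 10. The other gene annotated as laccase-1, MA_10433581g0010, held 0 to 4 counts a library and was not tested.

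In the average of days under BAP and BAP+IAA, PaLAC1-like moved against most of the laccases that the study lists, and it was not called under IAA. Of 70 further laccase genes that the study lists, 60 were tested. In the average of the 3 days under BAP, 12 of these were called higher and 40 lower, with a median log2 fold change of -2.20 against 0.0048 over all genes tested, of which 6.31% were called higher and 8.96% lower. PaLAC1-like stood at 2.94 ± 0.66 in that average (adjusted P = 6.11e-04), ranking 2 of 61. Only MA_7035458g0010 ranked above it (4.47 ± 1.27), while MA_132857g0010 fell most (-8.85 ± 1.21). On day 5 alone under BAP, PaLAC1-like stood at -0.042 and was not called, ranking 16 of 61, where the list median was -1.32.

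In the average of days under BAP+IAA, 15 laccases were called higher and 39 lower (median -3.46 against 0.018 over all genes, of which 11.8% were called higher and 12.4% lower). PaLAC1-like stood at 4.89 ± 0.55 and ranked 3 of 61, and on day 15 it ranked 1 of 61. The extremes of the list were MA_7035458g0010 at 6.19 ± 0.83 and MA_10431084g0010 at -8.67 ± 0.40. Under IAA 14 laccases were called higher and 32 lower (median -1.42 against 0.017, with 11.2% of all genes called higher and 9.59% lower), from MA_460753g0010 at 6.48 ± 0.33 to MA_10435226g0010 at -8.27 ± 0.69. There PaLAC1-like ranked 17 of 61 at 1.21 ± 0.65 and was not called (adjusted P = 0.115), although without IAA replicate 2 of day 10 its average over the days was 1.43 and was called (adjusted P = 0.042).

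**Figure D4:**
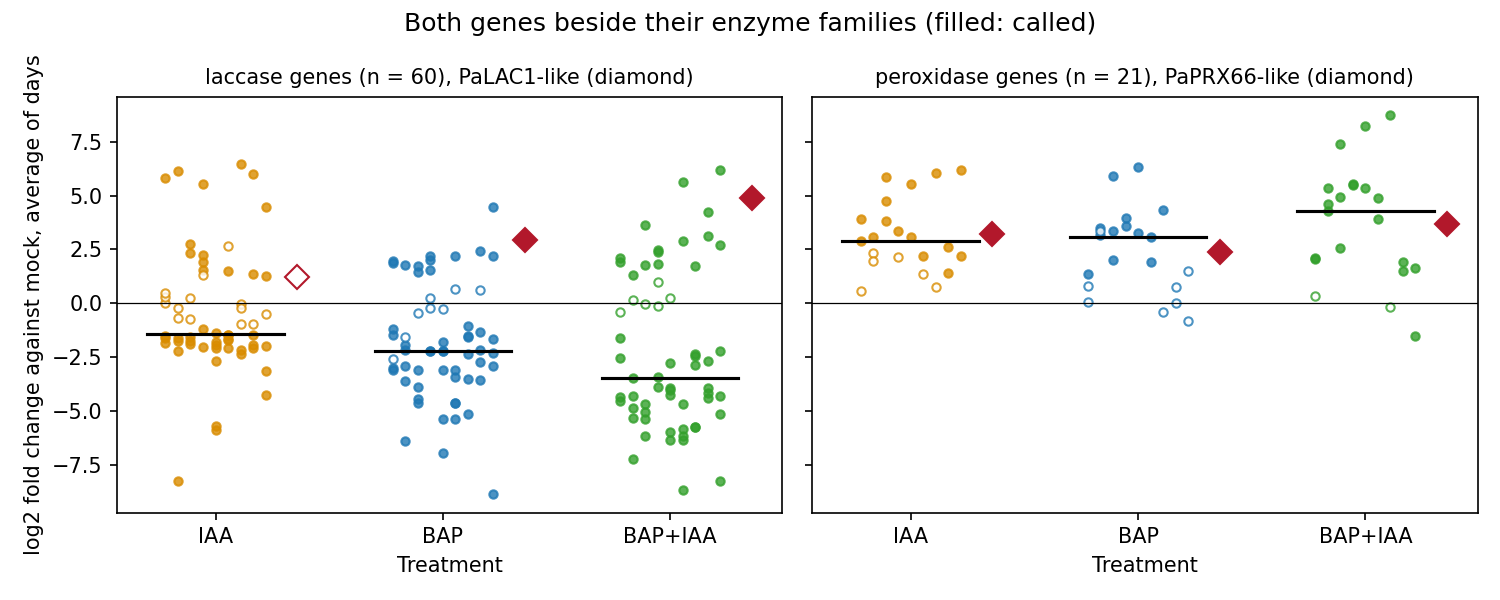
Change of each tested laccase (60 genes) and peroxidase (21 genes) against the mock, as log2 fold change in the average of the 3 days, by treatment. Filled points were called, black lines are list medians, and the diamonds are PaLAC1-like (left) and PaPRX66-like (right). PaLAC1-like lies above the laccase median under every hormone, and PaPRX66-like lies near the peroxidase median, at 3.20 against 2.90 under IAA and 2.38 against 3.06 under BAP.

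In the average of days, PaPRX66-like moved with most of the other peroxidases listed. The 21 genes come from a table of genes raised in graft tissue of spruce, of which only a part was at hand, so the list was chosen on other libraries and does not stand for the whole family. All 21 were tested. In the average of days 15 were called higher under IAA, with none called lower and a median of 2.90, 13 higher under BAP, with none lower and a median of 3.06, and 18 higher and 1 lower under BAP+IAA, with a median of 4.29. Over all genes tested 11.2%, 6.31% and 11.8% were called higher and 9.59%, 8.96% and 12.4% lower in these averages, with medians of 0.017, 0.0048 and 0.018. PaPRX66-like was called higher in all 3 averages, at 3.20 ± 0.37, 2.38 ± 0.39 and 3.67 ± 0.37 for IAA, BAP and BAP+IAA, and ranked 9, 12 and 13 of 22. On day 5 alone it stood lower in the list. It ranked 17 of 22 under IAA (0.87 against a list median of 3.52) and 18 of 22 under BAP+IAA (1.35 against 3.09). Under BAP on day 5 it ranked 13 of 22 (0.59 against 0.83). The values that follow are again averages of days. Called genes of the list ranged from MA_10436483g0010, peroxidase A2-like (6.17 ± 0.57), to MA_10435976g0010, cationic peroxidase 1-like (1.41 ± 0.16), under IAA, and from MA_10430578g0010, peroxidase 4-like (6.34 ± 0.89), to MA_140596g0010, peroxidase 72-like (1.34 ± 0.35), under BAP. Under BAP+IAA they ranged from MA_10433564g0020, peroxidase 5-like (8.73 ± 0.78), to MA_10431506g0010, peroxidase 11-like (-1.53 ± 0.28).

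The listed genes that make monolignols, the substrates of both enzymes, were called in both directions. Of 20 such genes from the same graft table, all tested, 4 were called higher and 2 lower in the average of days under IAA, 3 higher and 4 lower under BAP, and 5 higher and 3 lower under BAP+IAA. These make 6, 7 and 8 of the 20 genes, against 20.8%, 15.3% and 24.2% of all genes tested. Each share lay above that of all genes, but the list is short and the difference was not tested. The list was also chosen for genes raised in graft tissue and does not stand for the whole pathway. The medians of the 20 genes were -0.011, -0.49 and 0.085. MA_10435536g0010, a trans-cinnamate 4-monooxygenase, which acts early in the pathway, rose by 4.19 ± 0.47, 4.84 ± 0.47 and 5.84 ± 0.48 under IAA, BAP and BAP+IAA. Its mean was 39.5 CPM, and more abundant genes of that annotation did not rise. MA_118702g0010 (919 CPM) and MA_130482g0010 (635 CPM) were called lower under BAP (-1.18 and -1.54) and were not called under IAA or BAP+IAA. MA_10159692g0010, with an annotation that begins with cinnamate 4, was called lower under IAA, BAP and BAP+IAA (-1.37, -2.42 and -2.64). A caffeic acid O-methyltransferase, which methylates lignin precursors, MA_10426580g0010, fell under BAP (-2.89 ± 0.45) and BAP+IAA (-4.44 ± 0.52), and under IAA the lowest value was that of MA_10338686g0010, whose annotation begins with the same words (-3.75 ± 0.93). Genes of like annotation also rose. MA_10426470g0010, at a mean of 20.6 CPM against 2.91 CPM for MA_10426580g0010, was called higher under BAP (1.49 ± 0.19) and BAP+IAA (3.34 ± 0.19). MA_15892g0010, caffeic acid 3-O-methyltransferase, was called higher under IAA (1.28 ± 0.20) and BAP+IAA (1.17 ± 0.20).

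The listed genes of dirigent proteins, which steer the coupling of the radicals that oxidases form, mostly rose in RNA level. They come from the same graft table, which holds genes raised in graft tissue. The list was thus chosen for genes that rise there and does not stand for the whole family. Of the 13 genes listed for graft tissue 12 were tested, and in the average of days 9 were called higher and 1 lower under IAA, 8 higher and 1 lower under BAP, and 9 higher and 1 lower under BAP+IAA, with medians of 2.24, 1.77 and 3.52. Of all genes tested 11.2%, 6.31% and 11.8% were called higher in these averages. MA_108494g0010, dirigent pDIR2, rose by 4.48 ± 0.53, 5.17 ± 0.52 and 7.80 ± 0.47. The gene that fell in each, MA_10434362g0010, did so by -1.02 ± 0.18, -1.74 ± 0.18 and -2.92 ± 0.20.

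PaVND4-like (MA_6777g0010), named after a NAC regulator of xylem vessel formation in Arabidopsis, fell under BAP and BAP+IAA on days 10 and 15 and under IAA on day 15. Its mean level was 79.0 ± 3.80 CPM in the mock of day 15, 33.2 ± 8.33 CPM under IAA, 17.9 ± 6.16 CPM under BAP and 8.93 ± 3.52 CPM under BAP+IAA, with no overlap between any hormone group and the mock. The log2 fold changes on that day were -1.25 ± 0.25 (adjusted P = 3.53e-04, with 5.99% of genes called lower), -2.14 ± 0.26 (adjusted P = 3.82e-07, with 8.19% called lower) and -3.15 ± 0.28 (adjusted P = 5.6e-10, with 11.2% called lower). On day 10 it was called lower under BAP (-1.47 ± 0.26, with 7.89% of genes called lower) and BAP+IAA (-2.01 ± 0.26, with 11.5%). On day 5 it was not called, with -0.89 ± 0.26 under BAP (adjusted P = 0.0114), short of the fold threshold, and -0.44 ± 0.25 under BAP+IAA (adjusted P = 0.163). Both oxidases were called higher under BAP+IAA on day 5, but the call of PaPRX66-like held in only 1 of 6 fits that left out a library. BAP and BAP+IAA raised PaLAC1-like on days 10 and 15, and these comparisons share the mock libraries.

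PaMYB4-like (MA_316475g0010), named after an R2R3-MYB factor, rose under IAA on day 10 (1.98 ± 0.34, adjusted P = 3.19e-05) and day 15 (1.48 ± 0.33, adjusted P = 9.03e-04) and fell under BAP on day 5 (-1.97 ± 0.47, adjusted P = 0.00238, with 5.81% of genes called lower), and no other comparison with the mock was called. PaAPL-like (MA_201937g0010), named after a phloem regulator of Arabidopsis, was called in none of the 9 comparisons with the mock in edgeR. Its group means lay between 2.20 and 4.63 CPM, and its lowest unadjusted P was 0.0481, under IAA on day 10 (-0.55 ± 0.26).

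The genes whose log2 CPM over the 36 libraries was most like that of each enzyme were sought among 32342 genes with a mean of at least 1 CPM, as a description of likeness. For PaLAC1-like they were MA_10429742g0010, annotated as dehydration-responsive RD22 (Pearson's r = 0.90), MA_579484g0010 (0.89) and MA_10433564g0010, peroxidase 5-like (0.89), which shares its scaffold with the listed peroxidase that rose most under BAP+IAA. For PaPRX66-like they were MA_133473g0010, a probable polygalacturonase (0.89), an enzyme class that cuts pectin, MA_263616g0010 (0.87) and MA_20372g0010 (0.85). Pearson's r does not compare the size of changes. Group means ran only from 44.0 to 81.2 CPM for MA_263616g0010 and from 55.8 to 104 CPM for MA_20372g0010. Those of PaPRX66-like spanned 56.3-fold. All points share the treatment groups, so a common response to the hormones enters each r. MA_10429742g0010, for example, averaged 8.16 CPM in the mock, 14.8 CPM under IAA, 126.7 CPM under BAP and 173.4 CPM under BAP+IAA on day 15.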

How the data were processed

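RNA-seq libraries were made from poly-A RNA of treated hypocotyls. Per the labels and the study's methods, the authors removed ribosomal reads with SortMeRNA, trimmed with fastp, used STAR to align the rest to the P. abies v1.0 genome, and obtained gene counts from HTSeq, set to reverse strandedness. These raw counts, not normalized, were deposited. Treatment of reads with several alignments is not given in the sources used here. Total counts per library were 13188942 to 23110495, the precision of low counts being limited accordingly.

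The replicates are described as biologically independent, and no 2 libraries of the same group agreed within sampling noise (chi-square per degree of freedom 6.92 to 16.3 over the 36 pairs within groups). Tests used edgeR 4.0.16 with limma 3.58.1 in R 4.3.3 (filterByExpr on the 12 groups, TMM, glmQLFit with robust dispersion, 1 mean per group over 36 libraries, 24 residual degrees of freedom, two-sided quasi-likelihood F-tests, Benjamini-Hochberg over 38732 genes). A gene was called if its adjusted P was under 0.05 and its log2 fold change exceeded 1 in size. Standard errors are the size of the log2 fold change over the square root of F. Likeness used log2 CPM with a prior count of 2. Within-group relations used the log2 of CPM plus a small fixed offset, with 100000 permutations. Rows that name no gene were not found, and 0 columns were left without a sample.

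The tests were repeated with DESeq2 1.42.0, with RLE size factors, without the filter, with a replicate block, on the libraries of 1 day and without each library. The genes and lists were chosen with earlier results of these data known. The named genes were the members, genes on their scaffolds or with their annotation, the 3 genes most like each, 3 vascular regulators named by the study, and from each list the called genes with the largest and smallest change per hormone. Annotations and lists are from the study's tables, partly held only in part. Sequences, coordinates and gene lengths were not analysed here.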

Additional observations from a re-analysis of the deposited data

Results flagged for a closer look

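The response of PaPRX66-like, its log2 fold change against the mock of the same day, was larger on a later day than on day 5 in 3 of 6 direct tests of the difference. Under IAA it was larger by 3.96 ± 0.88 on day 10 (adjusted P = 0.00326, with 3.95% of genes called with a larger response) and by 3.04 ± 0.93 on day 15 (adjusted P = 0.0235, with 5.85%). Under BAP+IAA it was larger by 3.97 ± 0.87 on day 10 (adjusted P = 0.0115, with 0.586%). The values under BAP on days 10 and 15 (2.38 and 2.98) and under BAP+IAA on day 15 (2.98) were not called.

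The mock enters each of these values. Between day 5 and day 10 the mean of PaPRX66-like rose from 1.87 to 7.55 CPM under IAA and from 2.66 to 10.6 CPM under BAP+IAA, while that of the mock went from 1.04 to 0.261 CPM. On day 15 the IAA mean was 2.98 CPM and the mock mean 0.189 CPM, so that the log2 level under IAA was 0.65 above that of day 5 and the log2 level of the mock -2.39 relative to it. Under BAP, where the change of the response was not called, the means were 1.56, 2.09 and 2.34 CPM on days 5, 10 and 15. The part of the mock in the result was not tested. Under IAA the day 10 difference was called in all 12 fits that left out 1 library, with 3.36 as its lowest value, without IAA replicate 1 of day 10. The day 15 difference was lost without mock replicate 1 (2.67) or IAA replicate 1 (2.83) of day 5 and without mock replicate 1 (3.01), mock replicate 3 (2.92) or IAA replicate 3 (2.61) of day 15. The BAP+IAA difference was lost without mock replicate 1 of day 5 (3.61, adjusted P = 0.0522).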

How the results depend on the processing

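With RLE size factors all 84 values of the 2 genes kept their direction and their side of the threshold. Counts of 0 to 24 in the mock libraries limited the precision of every fold against the mock. The 36 libraries share replicate numbers, and same-numbered libraries of different groups correlated with a mean r of 0.061 (-0.081 to 0.276) in their deviations, against -0.031 between different numbers. This is above 0.1 in only 60 of 198 pairs, and no label says that a number marks a shared batch, so the numbers were not taken as pairs, although 23 of 36 libraries were most like their own number, a hint from the data and not the design. With the replicate block 83 of 84 values kept their side, and the interaction of PaPRX66-like on day 10 lost its call (-2.44). The block gave 42 against 22 called genes for mock day 10 against day 5, 717 against 422 for mock day 15 against day 5 and 1027 against 614 for BAP day 10 against day 5.

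With no low-count filter PaPRX66-like lost its calls under BAP+IAA on day 5 (1.35) and in the interaction of day 10 (-2.47), and 13 genes were called for mock day 10 against day 5 and 81 against 129 for BAP day 15 against day 10. In fits to the libraries of a day, PaLAC1-like on day 10 lost its calls for BAP+IAA against IAA (2.42) and IAA against BAP (-2.54), and PaPRX66-like its interactions of days 10 (-2.47) and 15 (-3.16). With DESeq2, PaLAC1-like lost its call for BAP+IAA against IAA on day 10 (2.36) and gained that of the BAP response from day 5 to day 15 (5.76). PaPRX66-like gained those of the mock, day 15 against day 5 (-2.45), and of the BAP (3.05) and BAP+IAA (3.06) responses from day 5 to day 15. DESeq2 called 188, 744 and 31 genes between mock days 5 and 10, 5 and 15, and 10 and 15 (edgeR 22, 422 and 0), 1174 and 388 between BAP days 5 and 10, and 10 and 15 (edgeR 614 and 129), and 56, 952 and 970 for the changes of the BAP response to days 10 and 15 and of the BAP+IAA response to day 10 (edgeR 0, 484 and 602). The causes were not tested.

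Leaving out 1 library at a time, PaLAC1-like ranged against the mock from -0.20 to 2.52 (IAA, day 5), -0.49 to 0.86 (BAP, day 5), -1.07 to 1.26 (IAA, day 10), 2.27 to 3.51 (BAP+IAA, day 10) and 0.61 to 1.71 (IAA, average of days). Its BAP+IAA level ranged from 1.63 to 4.12 against IAA and from -0.91 to 0.33 against BAP on day 10, and IAA against BAP from -0.18 to 2.14 on day 5 and -4.25 to -1.93 on day 10. Its interaction ranged from 2.66 to 5.37, -1.54 to 0.95 and -2.10 to 0.12 on days 5, 10 and 15. Between days it ranged from -2.31 to 0.10 (mock, 15 against 5), -1.74 to 1.79, -1.79 to 0.79 and -1.76 to 0.70 (IAA, 10 against 5, 15 against 5 and 15 against 10) and 3.78 to 4.48 (BAP, 10 against 5), and the IAA response changed by -2.70 to 0.84 to day 10 and -1.13 to 1.60 to day 15.

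PaPRX66-like ranged from 1.15 to 1.73 (BAP+IAA against mock, day 5), -0.24 to 0.87 (BAP+IAA against IAA, day 15), and for IAA against BAP from -0.012 to 0.53, 1.25 to 2.47 and -0.10 to 0.79 on days 5, 10 and 15. Its interaction ranged from -0.50 to 0.16, -2.86 to -1.87 and -3.81 to -2.70. Between days it ranged from -0.21 to 0.79 and -0.21 to 0.78 (BAP, 10 against 5 and 15 against 10) and -0.065 to 0.92 and -2.08 to -1.08 (BAP+IAA, 15 against 5 and 15 against 10). Its responses changed by 2.61 to 3.51 (IAA, day 15), 3.61 to 4.18 (BAP+IAA, day 10) and 2.33 to 3.31 (BAP+IAA, day 15). Genes called ranged from 1 to 36, 110 to 401 and 0 to 1 between mock days 5 and 10, 5 and 15, and 10 and 15, 142 to 361 between IAA days 10 and 15, 161 to 651 and 6 to 216 between BAP days 5 and 10, and 10 and 15, 348 to 1157 between BAP+IAA days 10 and 15, and 0 to 1, 253 to 681 and 391 to 637 for the changes of the BAP response to days 10 and 15 and of the BAP+IAA response to day 10.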
